A study of Mus musculus with 11 samples.

Results

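A set of 10 genes of the naive pluripotency circuit of mouse embryonic stem (ES) cells was followed across 3 culture media: Nanog, Klf2, Klf4, Klf5, Esrrb, Tfcp2l1, Tbx3, Prdm14, Nr0b1 and Dppa3. They were taken as a list of names and found on the array through the RefSeq accession of each probe. All 10 were found, by 12 probes, among 20964 genes with a named probe, and all 10 were among the 16279 genes tested. The probe standing for each gene was well above background on all 11 arrays, so none passed the filter on dim probes through a single medium. The arrays were Agilent one-colour arrays, 1 for each of 11 samples of unsorted ES cells that had spent at least 3 passages in their medium. Of these, 5 samples came from 2i/LIF, 3 from KOSR/LIF and 3 from serum/LIF. LIF (leukaemia inhibitory factor) was present in all 3 media. The medium 2i/LIF blocks the kinases MEK and GSK3, KOSR is a defined replacement for serum, and serum/LIF is the standard medium. The 3 ES cell clones used, HVJu5.1, HVJu9.3 and E14, all have the background strain 129/Ola, with 1 sample of each clone in KOSR/LIF and in serum/LIF. The labels do not say whether repeated 2i/LIF samples of a clone were separate cultures, so p-values reflect no more than the spread among the samples, which may be partly technical. The series asks whether each medium holds ES cells in a state of its own.

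The naive circuit is a mutually reinforcing set of transcription factors that keeps ES cells in a state like the epiblast of the blastocyst before implantation. Its factors bind each other's control regions and receive signals from outside: LIF acts through the kinase JAK and the factor STAT3, blocking GSK3 relieves repression by the factor Tcf7l1, and blocking MEK removes the ERK signal that pushes cells toward differentiation. Cells lacking single members often self-renew, since the factors partly replace one another.

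The 250 bases before the transcription start were read from RefSeq promoters of build GRCm38.p6, which held entries for 6 of the 10 genes: Tfcp2l1, Klf4, Nanog, Klf2, Esrrb and Nr0b1. Printed here are those of the 4 among them that differed between 2i/LIF and KOSR/LIF, to show which of the motifs searched lie next to genes that differed. Of these motifs, only those of Klf and Esrrb belong to members of the circuit. For Nanog and Esrrb, each with 2 listed starts, the first is shown. All 4 are on the plus strand, Nanog at chr6:122707239-122707488, Tfcp2l1 at chr1:118627695-118627944, Klf2 at chr8:72318812-72319061 and Esrrb at chr12:86360867-86361116. Capitals mark matches to 4 motifs searched on both strands: the Oct4-Sox2 composite, the Klf motif GGGCGTGG, the Esrrb motif TCAAGGTCA and the STAT motif TTCNNNGAA. No 2 matches overlapped.
Nanog: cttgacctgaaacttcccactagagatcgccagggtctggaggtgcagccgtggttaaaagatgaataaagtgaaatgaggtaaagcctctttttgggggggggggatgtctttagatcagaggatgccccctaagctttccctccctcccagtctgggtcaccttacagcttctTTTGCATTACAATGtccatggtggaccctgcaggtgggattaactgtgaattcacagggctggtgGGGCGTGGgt
Tfcp2l1: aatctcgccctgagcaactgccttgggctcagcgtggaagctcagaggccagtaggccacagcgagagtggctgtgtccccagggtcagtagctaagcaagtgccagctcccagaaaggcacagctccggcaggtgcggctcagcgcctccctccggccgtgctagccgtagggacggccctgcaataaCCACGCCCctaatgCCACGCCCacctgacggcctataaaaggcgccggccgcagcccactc
Klf2: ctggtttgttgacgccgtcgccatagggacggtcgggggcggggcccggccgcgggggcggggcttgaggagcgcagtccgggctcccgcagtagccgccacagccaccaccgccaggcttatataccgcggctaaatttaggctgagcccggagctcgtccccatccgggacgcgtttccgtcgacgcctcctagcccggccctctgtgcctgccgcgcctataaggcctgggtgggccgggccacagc
Esrrb: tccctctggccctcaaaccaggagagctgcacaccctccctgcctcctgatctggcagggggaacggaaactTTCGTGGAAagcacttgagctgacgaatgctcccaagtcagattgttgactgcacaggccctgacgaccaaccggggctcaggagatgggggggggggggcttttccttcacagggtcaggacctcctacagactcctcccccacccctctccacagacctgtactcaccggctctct
Nanog held the Oct4-Sox2 composite 75 to 62 bases before the start, and the only windows with it among 32851 of the same length were the 2 of Nanog's own listed starts (0.00609%). It also held a Klf match 10 to 3 bases before the start. Tfcp2l1 held 2 Klf matches, at 61 to 54 and at 47 to 40 bases before the start, and 4.79% of all windows held this motif. Esrrb held 1 STAT match at 178 to 170 bases before the start, in common with 7.02% of windows. The windows of Klf2, Klf4 and Nr0b1 held none of the 4 motifs, and the Esrrb motif, found in 0.387% of all windows, was in none of the members' windows.

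Levels are the log2 of the processed intensity minus the 75th percentile of the same array, so a level of 0 lies at that percentile. A gene's level is compared between arrays only, never with another gene's. Array brightness differed: the 75th percentile was 70.8 on KOSR/LIF replicate 3 and 198 to 612 on the other arrays, and 44.3% of spots were well above background there, against 54.5% to 73.2%. The 6 ES cell markers (Pou5f1, Sox2, Zfp42, Sall4, Utf1 and Lin28a) were well above background on every array. Pou5f1, the factor Oct4 that ES cells require, had levels of 5.84, 5.65, 6.10, 6.10 and 5.96 in 2i/LIF, 5.75, 5.48 and 3.57 in KOSR/LIF, and 5.97, 6.08 and 5.95 in serum/LIF. The low value was that of KOSR/LIF replicate 3. Sox2, the partner of Oct4, had 3.01 to 3.39 in 2i/LIF, 2.05 to 2.73 in KOSR/LIF and 3.64 to 4.03 in serum/LIF. Some labels could not be settled. Titles and source names give different clones for 2i/LIF replicates 1 to 4. The deposited table of processed values, ranked over probes, matched the scanner files under partly different names. Its columns of 2i/LIF replicates 1 and 4 matched each other's scanner file (rank correlation 0.995 and 0.992) better than their own (0.933 and 0.936), and those of KOSR/LIF replicates 1 and 2 likewise matched each other's file (0.997 both). These exchanges lie within a medium. The column of KOSR/LIF replicate 3 matched none as closely: 0.842 with its own scanner file and at best 0.962 with serum/LIF replicate 3. The scanner file of KOSR/LIF replicate 3 also correlated less with its own medium (r of 0.931 to 0.936 over genes) than the other 2 KOSR/LIF arrays did with each other (0.984). For the members and the gene lists, values without that array or from the deposited table are given below for many, but not all, of the calls and counts they change.

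Against serum/LIF, 3 of the 10 genes were higher in 2i/LIF and none was lower. Tfcp2l1, Prdm14 and Tbx3 were higher, by log2 changes of 1.46, 1.47 and 1.22, in limma's test with Benjamini-Hochberg adjustment over all genes (adjusted p under 0.05). Over all genes tested 16.9% were called in this comparison, 6.98% higher and 9.91% lower, and at an unadjusted p under 0.05 the members gave 3 higher and 1 lower. The arrays did not overlap for 3 members, Nanog, Tfcp2l1 and Prdm14, all higher in 2i/LIF, as were 11.9% of all genes. The median log2 change of the 10 members was 0.29, beside 0.03 for all genes. The count of members called higher was 4 without KOSR/LIF replicate 3, in the deposited table and with only the 2 media compared, where Nanog also passed. It was 2 with normexp background correction and without serum/LIF replicate 1 or 2, among other settings, where Tbx3 lost its call. In bulk RNA, fewer cells expressing a gene and less RNA in each cell cannot be told apart.

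In KOSR/LIF against serum/LIF, 4 of the 10 were lower and none was higher. Dppa3, Nr0b1, Klf2 and Tfcp2l1 fell by 2.81, 1.90, 1.63 and 1.40 on the log2 scale. Here 4.56% of all genes were called, 2.46% higher and 2.1% lower, and at an unadjusted p under 0.05 the members gave 0 higher and 6 lower. Arrays did not overlap for 5 members, those 4 and Esrrb, all lower in KOSR/LIF, as were 15.3% of all genes. The members' median was -0.93, beside -0.01 for all genes. Of the genes called, 53.9% were higher, against 41.3% with normexp background correction and 41.1% with quantile normalization. The count of called members rests on few arrays. It was 4 without KOSR/LIF replicate 3 and 4 from the deposited table, but 2 without KOSR/LIF replicate 1, 2 without KOSR/LIF replicate 2, 2 without serum/LIF replicate 1, 1 without serum/LIF replicate 3 and 0 without serum/LIF replicate 2, where 5 members had an unadjusted p under 0.05 and the smallest adjusted p was 0.0512.

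Between the 2 media without serum, 2i/LIF against KOSR/LIF, 7 of the 10 were higher in 2i/LIF and none lower: Tfcp2l1, Dppa3, Klf2, Nanog, Prdm14, Tbx3 and Esrrb. The other 3, Klf4, Klf5 and Nr0b1, did not pass. Of all genes, 14.8% were called, 5.9% higher and 8.9% lower, and at an unadjusted p under 0.05 the members gave 8 higher and 0 lower. Arrays of the same 7 members did not overlap, all higher in 2i/LIF, as were 8.83% of all genes. All 10 log2 changes were positive, with a median of 1.48 beside 0.01 for all genes. Without KOSR/LIF replicate 3 the count was 5, since Tbx3 (adjusted p = 0.166) and Esrrb (0.066) no longer passed. In the deposited table it was 6, since Tbx3 (0.77, adjusted p = 0.0981) did not pass. The 3 comparisons share arrays in pairs, so they are no independent evidence of one another.

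**Figure D1:**
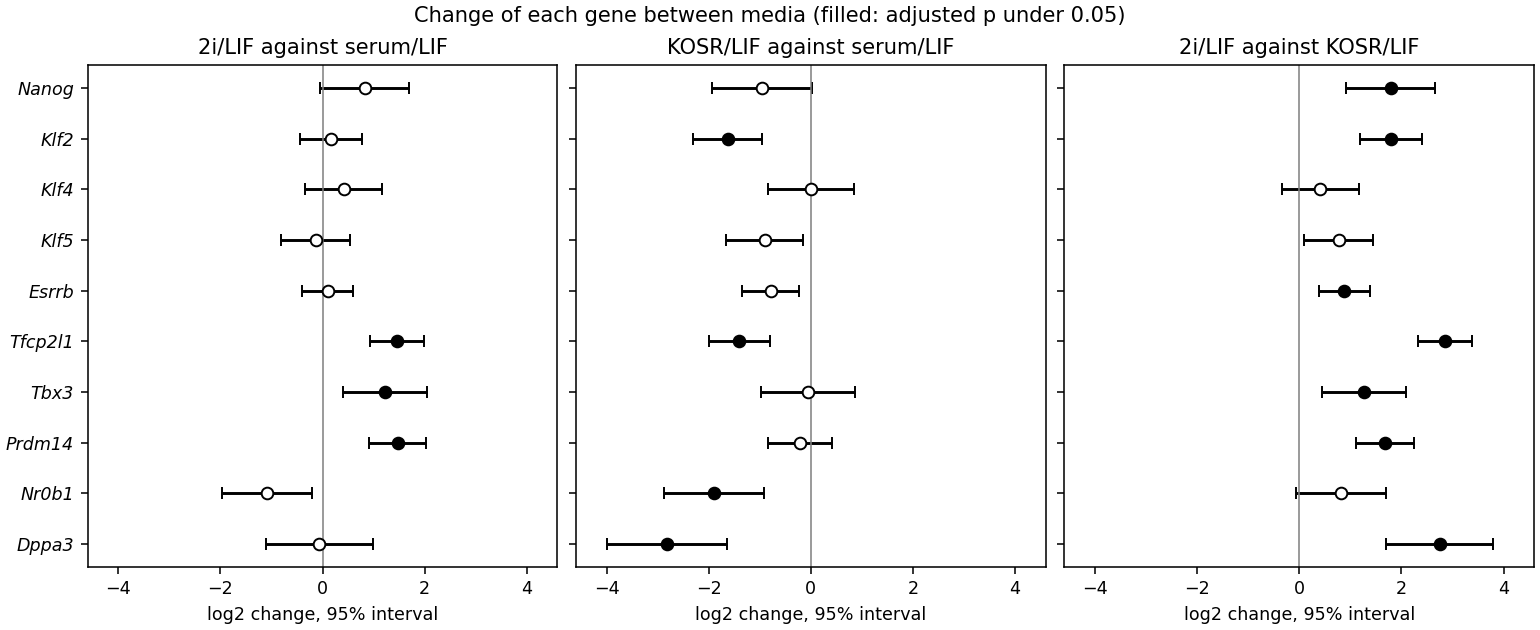
Log2 change of each of the 10 genes (rows) in the 3 comparisons (panels), with 95% intervals from limma's fit. Filled points have an adjusted p under 0.05: 3 in 2i/LIF against serum/LIF, 4 in KOSR/LIF against serum/LIF and 7 in 2i/LIF against KOSR/LIF.

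Tfcp2l1, a Grainyhead-like factor and direct target of STAT3, was the one member called in all 3 comparisons. Its levels were 5.29, 4.54, 5.11, 5.13 and 5.101 in 2i/LIF, 2.26, 2.41 and 1.85 in KOSR/LIF, and 3.30, 3.50 and 3.92 in serum/LIF. The media formed 3 separate levels with no overlap, 2i/LIF highest and KOSR/LIF lowest. Tfcp2l1 rose by 1.46 ± 0.24 (SE, adjusted p = 0.00144) in 2i/LIF against serum/LIF, fell by 1.40 in KOSR/LIF against serum/LIF (SE 0.27, adjusted p = 0.0158) and was 2.86 ± 0.24 higher in 2i/LIF than in KOSR/LIF (adjusted p = 3.67e-05). These are 2.75-fold and 7.26-fold higher in 2i/LIF than in serum/LIF and in KOSR/LIF. Without KOSR/LIF replicate 3 the differences from KOSR/LIF were -1.24 (KOSR/LIF minus serum/LIF, adjusted p = 0.037) and 2.70 (2i/LIF minus KOSR/LIF, 0.000218). On the 6 arrays of scan day 1, which are 1 slide with 2 arrays of each medium, the 3 changes were 1.72, -1.07 and 2.78 and all passed. On scan day 3, with 2 arrays of 2i/LIF and 1 of serum/LIF, the difference was 1.28 (adjusted p = 0.141). Leaving out serum/LIF replicate 2 or 3 took the KOSR/LIF difference just past the threshold (adjusted p = 0.0512 and 0.0624). A second Tfcp2l1 probe, tested among all single probes, gave 1.27, -1.75 and 3.02 for the same comparisons, with adjusted p of 0.0688, 0.066 and 0.000772. Of all single probes, 16.1%, 4.13% and 13.7% were called in these comparisons.

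Prdm14, a chromatin regulator that represses FGF receptor signalling and DNA methyltransferase genes, separated 2i/LIF from both other media. Its levels were 2.77, 2.67, 2.66, 2.92 and 3.60 in 2i/LIF, 1.15, 1.39 and 1.18 in KOSR/LIF, and 1.22, 1.33 and 1.81 in serum/LIF. All 5 arrays of 2i/LIF lay above every array of the other media, and KOSR/LIF and serum/LIF overlapped. Prdm14 was higher in 2i/LIF by 1.47 ± 0.26 against serum/LIF (adjusted p = 0.00203) and by 1.69 ± 0.26 against KOSR/LIF (adjusted p = 0.00113). The KOSR/LIF minus serum/LIF difference was -0.22, with a 95% interval of -0.85 to 0.42. That difference was -0.18 without KOSR/LIF replicate 3, and 2i/LIF minus KOSR/LIF was 1.66 (adjusted p = 0.00488), beside 1.44 (0.00149) in the deposited table.

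Tbx3, a T-box factor that acts downstream of PI3K and LIF signalling, was also high in 2i/LIF. Its levels were 5.22, 4.30, 4.79, 4.91 and 5.27 in 2i/LIF, 4.12, 3.91 and 2.86 in KOSR/LIF, and 3.54, 3.08 and 4.42 in serum/LIF. The lowest 2i/LIF array lay below the highest serum/LIF array, and 2i/LIF did not overlap KOSR/LIF. The changes were 1.22 ± 0.38 against serum/LIF (adjusted p = 0.0454) and 1.27 ± 0.38 against KOSR/LIF (0.0423), both close to the threshold. The first lost its call in 12 of 27 other settings and the second in 15 of the 26 that have a test, with changes of 0.82 to 1.59 and of 0.71 to 1.51. Between KOSR/LIF and serum/LIF the difference was -0.05 (95% interval -0.97 to 0.87), and 0.71 on scan day 1.

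Nanog, the homeodomain factor at the centre of the naive network, had 2 probes that disagreed on 1 array. On the brighter probe, which stands for the gene, levels were 4.10, 4.03, 4.19, 4.05 and 4.45 in 2i/LIF, 2.76, 3.27 and 1.09 in KOSR/LIF, and 3.10, 3.32 and 3.59 in serum/LIF. All 2i/LIF arrays were above all others, and KOSR/LIF replicate 3 was far below the rest. Nanog was 1.79 ± 0.40 higher in 2i/LIF than in KOSR/LIF (adjusted p = 0.0104), and 1.15 higher without that array (adjusted p = 0.00937) or 1.05 in the deposited table (0.00288). Against serum/LIF the 2i/LIF difference was 0.83 ± 0.40 (adjusted p = 0.211). It passed in 5 of 27 other settings, among them the fit without KOSR/LIF replicate 3 (0.83, adjusted p = 0.0149) and the deposited table (0.79, 0.011). The KOSR/LIF minus serum/LIF difference was -0.96 (adjusted p = 0.276), and -0.32 without KOSR/LIF replicate 3.

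The second Nanog probe read -0.96, 1.24, -0.42, -1.53 and -1.66 in 2i/LIF, -1.78, -1.36 and 7.86 in KOSR/LIF, and -1.84, -1.30 and -2.14 in serum/LIF. On KOSR/LIF replicate 3 it was thus the highest of all 11 arrays, 6.62 above the next, while the first probe was the lowest there. Of 21274 named probes tested, 6 including this one stood so far above the next array, all 6 on KOSR/LIF replicate 3. In the deposited table the same probe had a log2 value of 6.54 in the KOSR/LIF replicate 3 column and 6.71 to 9.73 in the others. Averaging both probes turned the Nanog difference to 1.19 in KOSR/LIF against serum/LIF and to -0.23 in 2i/LIF against KOSR/LIF, neither passing (adjusted p = 0.467 and 0.883).

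**Figure D2:**
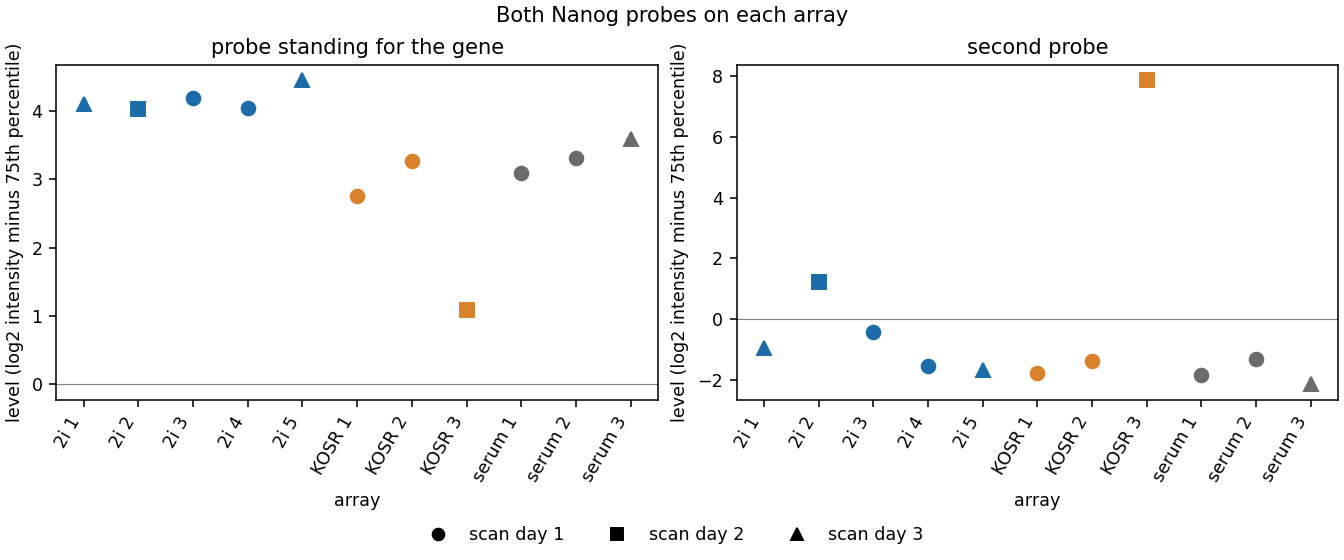
Level of each Nanog probe (log2 intensity minus the array's 75th percentile) on each of the 11 arrays, coloured by medium and shaped by scan day. The probe standing for the gene (left) is lowest at 1.09 on KOSR/LIF replicate 3, where the second probe (right) reads 7.86.

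Of the 3 Krüppel-like factors, which bind largely the same sites in ES cells, Klf2 passed in both comparisons with KOSR/LIF, and Klf4 and Klf5 passed in none over all 11 arrays. Klf2, a protein that ERK marks for degradation in ES cells, had 6.23, 5.79, 5.44, 6.11 and 6.08 in 2i/LIF, 3.71, 3.93 and 4.78 in KOSR/LIF, and 5.69, 5.94 and 5.69 in serum/LIF. KOSR/LIF lay below every array of the other media, which overlapped each other. Klf2 fell by 1.63 in KOSR/LIF against serum/LIF (SE 0.31, adjusted p = 0.0147) and was 1.79 ± 0.28 higher in 2i/LIF than in KOSR/LIF (0.00124). Without KOSR/LIF replicate 3 these were -1.95 (adjusted p = 0.00748) and 2.11 (0.000552). Single arrays mattered: the first lost its call without KOSR/LIF replicate 1 or 2 or serum/LIF replicate 1 or 2 (adjusted p of 0.0534 to 0.0595). The 2i/LIF minus serum/LIF difference was 0.16 (95% interval -0.45 to 0.77).

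Klf4, a reprogramming factor induced by STAT3, had 4.72, 3.93, 3.44, 4.33 and 4.51 in 2i/LIF, 3.90, 3.37 and 4.03 in KOSR/LIF, and 3.48, 3.38 and 4.43 in serum/LIF. The 3 media overlapped throughout. Its differences were 0.42 in 2i/LIF against serum/LIF (95% interval -0.33 to 1.17), 0.01 in KOSR/LIF against serum/LIF (-0.84 to 0.85) and 0.41 in 2i/LIF against KOSR/LIF (-0.34 to 1.17). These intervals do not exclude a change of 1 in the first and last. Klf5, which supports self-renewal and restrains primitive endoderm fate, had 3.91, 4.68, 4.40, 4.29 and 3.80 in 2i/LIF, 4.17, 3.08 and 3.08 in KOSR/LIF, and 4.51, 4.05 and 4.49 in serum/LIF. KOSR/LIF held its 2 lowest values, and its highest array overlapped the other media. The differences were -0.14 (adjusted p = 0.862), -0.91 (0.177) and 0.77 (0.126) in the same order of comparisons. Klf5 was 1.13 higher in 2i/LIF than in KOSR/LIF and passed (adjusted p = 0.0331) without KOSR/LIF replicate 1, the highest of its medium.

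Esrrb, an orphan nuclear receptor that GSK3 inhibition releases from Tcf7l1, had 6.56, 6.36, 6.93, 6.96 and 6.85 in 2i/LIF, 5.89, 5.97 and 5.68 in KOSR/LIF, and 6.66, 6.95 and 6.28 in serum/LIF. KOSR/LIF was lowest with no overlap, by a small margin, and 2i/LIF and serum/LIF overlapped. Esrrb was 0.88 ± 0.23 higher in 2i/LIF than in KOSR/LIF (adjusted p = 0.0227), a call lost in 5 of 26 other settings with a test, among them without 2i/LIF replicate 4 (0.0541), KOSR/LIF replicate 1 (0.0639) or KOSR/LIF replicate 3 (0.066). KOSR/LIF minus serum/LIF was -0.78 ± 0.26 (adjusted p = 0.116). With slide as a block it passed (-0.85, adjusted p = 0.0413), the 1 setting of 26 in which it did. The difference 2i/LIF minus serum/LIF was 0.10 (95% interval -0.40 to 0.60).

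Nr0b1 (Dax1), an orphan receptor without a DNA-binding domain that binds Oct4 and Esrrb and restrains them, had its highest array in serum/LIF. Its levels were 4.01, 2.27, 2.95, 2.68 and 3.28 in 2i/LIF, 2.52, 1.50 and 2.62 in KOSR/LIF, and 3.76, 4.01 and 4.59 in serum/LIF. KOSR/LIF lay below serum/LIF without overlap, and 2i/LIF overlapped both. Nr0b1 fell by 1.90 in KOSR/LIF against serum/LIF (SE 0.45, adjusted p = 0.0349), a call that 8 of 26 other settings lost (-2.08 to -1.55 there, adjusted p up to 0.125), among them each of the fits without KOSR/LIF replicate 1 or 2 or serum/LIF replicate 1, 2 or 3 (0.0659, 0.116, 0.0808, 0.0918 and 0.125). For 2i/LIF against serum/LIF the difference was -1.08 ± 0.40 (adjusted p = 0.093). It passed in 3 of 27 other settings, among them with scan day as a block (-1.14, adjusted p = 0.0356), and without 2i/LIF replicate 1 (-1.32, 0.0281). Between 2i/LIF and KOSR/LIF it was 0.82 (0.213). The Nr0b1 probe is spotted 10 times on each array, of which 8 to 10 spots were unflagged. The SD between those spots was 0.05 to 0.09 within an array, against SDs of 0.66, 0.62 and 0.43 between the arrays of 2i/LIF, KOSR/LIF and serum/LIF.

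Dppa3 (Stella), a maternal factor that protects DNA methylation patterns in the early embryo, had the largest change of any member in KOSR/LIF against serum/LIF. Its levels were 1.49, 3.28, 2.27, 2.81 and 1.84 in 2i/LIF, -0.01, 0.16 and -1.40 in KOSR/LIF, and 1.73, 2.50 and 2.97 in serum/LIF. All KOSR/LIF arrays were below all others, while 2i/LIF and serum/LIF covered nearly the same range. Dppa3 fell by 2.81 in KOSR/LIF against serum/LIF (SE 0.53, adjusted p = 0.0147) and was 2.75 ± 0.48 higher in 2i/LIF than in KOSR/LIF (0.00253). Without KOSR/LIF replicate 3 these were -2.32 (adjusted p = 0.037) and 2.26 (0.0117). The first was not called without serum/LIF replicate 2 (-2.76, adjusted p = 0.0527) or serum/LIF replicate 3 (-2.53, 0.0564). The 2i/LIF minus serum/LIF difference was -0.06 (95% interval -1.11 to 0.99). Dppa3 and Nanog are neighbours on chromosome 6, so the genes around them were looked at too: of 6 listed (Gdf3, Apobec1, Slc2a3, Foxj2, Necap1 and Clec4a2), 5 were tested. By limma none passed in any comparison, nor at an unadjusted p under 0.05. Gdf3, next to Dppa3 and a TGF-beta family ligand of ES cells, differed by -0.20 in KOSR/LIF against serum/LIF (adjusted p = 0.776), and Slc2a3, the glucose transporter next to Nanog, by -0.06 (0.931).

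**Figure D3:**
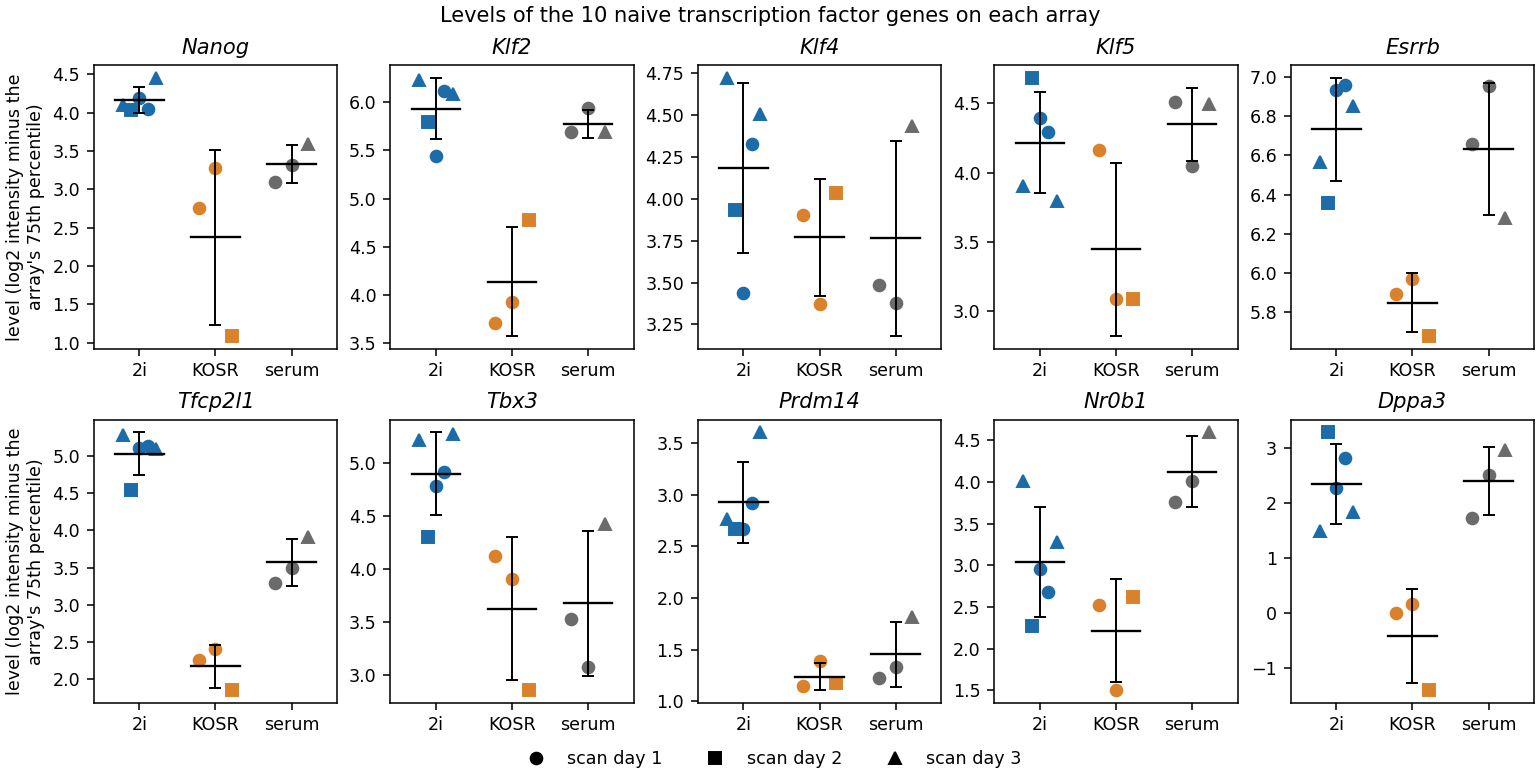
Level of each gene (log2 intensity minus the array's 75th percentile) on each array by medium, with the mean (line) and SD (bar), shaped by scan day. Tfcp2l1 shows 3 separate levels, with means of 5.03 in 2i/LIF, 2.17 in KOSR/LIF and 3.57 in serum/LIF, and the media overlap for Klf4.

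Set side by side, Tfcp2l1, Nanog, Prdm14, Tbx3, Klf2 and Esrrb shared one order of means, 2i/LIF, serum/LIF, KOSR/LIF, and differed in which media overlapped. Some steps of this order were small and turned in other settings. For Tbx3, KOSR/LIF minus serum/LIF was -0.05, and positive in 8 of 26 other settings. For Esrrb and Klf2, 2i/LIF minus serum/LIF was 0.10 and 0.16, and negative in 2 and 1 of 27. No media overlapped for Tfcp2l1. For Nanog and Prdm14, 2i/LIF stood alone above and the other media overlapped, and for Klf2 and Esrrb, KOSR/LIF stood alone below. Dppa3 also had KOSR/LIF alone below, and with Nr0b1 and Klf5 had its highest mean in serum/LIF. Likeness between members was measured as the root mean square (RMS) difference between their levels over the 11 arrays, each centred on the gene's own mean. The smallest distances were those of Tbx3 with Prdm14 (0.43) and Klf5 with Esrrb (0.48), and the largest that of Klf4 with Dppa3 (1.41). The measure is not scaled for how much a gene varies. By the same measure Esrrb lay 0.44 and Klf5 0.52 from its own mean, so their small distance does not show a shared pattern. Dppa3 lay 1.39 from its own mean. All these distances are descriptions over arrays that share a medium.

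Array by array, KOSR/LIF replicate 3 was the lowest of all 11 arrays for 6 of the 10 members, and KOSR/LIF replicates 1 and 2 were the lowest for 2 each. No 2i/LIF or serum/LIF array was the lowest for any member. The highest value lay on a 2i/LIF array for 9 members and on serum/LIF replicate 3 for 1, Nr0b1. The matching shares over all genes were not counted, so these ranks are not shown to be particular to the members. KOSR/LIF replicate 3 was an extreme array in general: it was the highest for 3905 of the 21274 named probes, against 1194 to 2384 for each other array. The members also differed in how much replicates spread. Within 2i/LIF the SD of Nanog was 0.17, below that of all but 6.48% of genes, while those of Dppa3 and Nr0b1 were 0.72 and 0.66 beside a median of 0.41 over all genes. In KOSR/LIF the SD of Nanog was 1.14, against 0.13 for Prdm14 and 0.15 for Esrrb, with a median of 0.42 over all genes. In serum/LIF Klf2 spread least (0.14) and Tbx3 most (0.68).

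**Figure D4:**
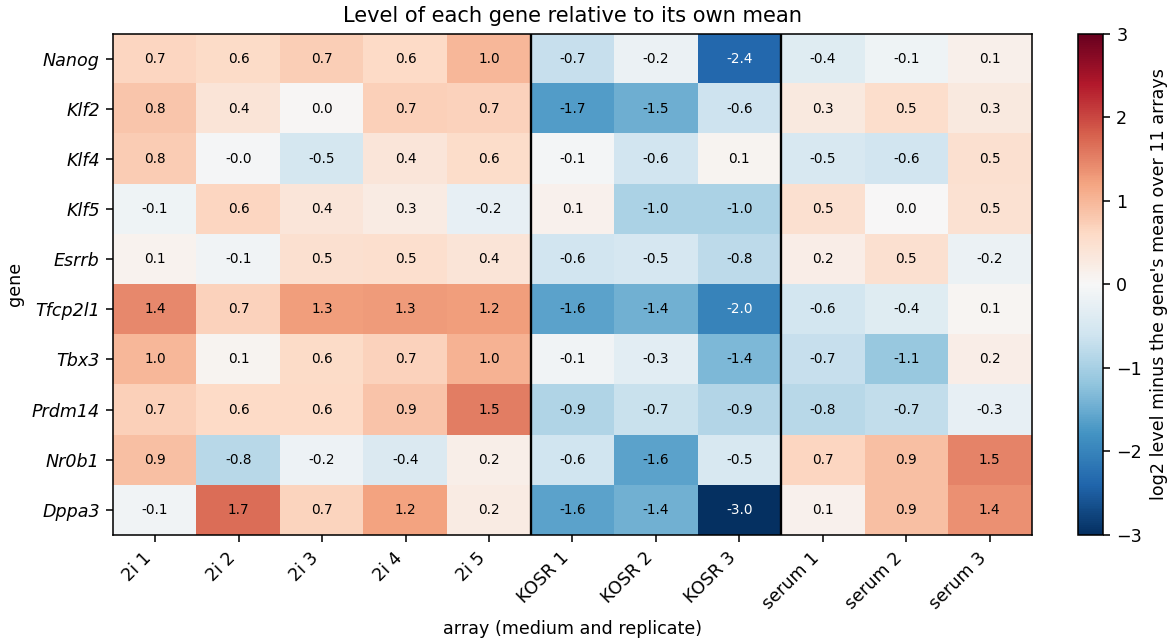
Log2 level of each gene (rows) on each array (columns, by medium and replicate) minus the gene's mean over the 11 arrays. KOSR/LIF columns are mostly below 0, and replicate 3 is lowest of all arrays for 6 genes.

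In the deposited table the 4 genes that passed as lower in KOSR/LIF than in serum/LIF were again Dppa3 (-2.13, adjusted p = 0.0266), Nr0b1 (-1.77, 0.0444), Klf2 (-1.60, 0.0097) and Tfcp2l1 (-1.33, 0.00641). The table's replicate 3 column and the scanner array of that name differed most for Nanog, Dppa3 and Tbx3. Relative to the serum/LIF mean of the same source, the scanner array was at -2.24 for Nanog, -3.80 for Dppa3 and -0.82 for Tbx3, and the table column at -0.23, -1.92 and 0.48. Tfcp2l1 was at -1.72 on the scanner and -1.61 in the table, Klf2 at -0.997 and -1.09, Nr0b1 at -1.498 and -1.11, Klf5 at -1.27 and -0.74, and Esrrb at -0.95 and -0.92. With Nanog and Dppa3, 7 of the 10 genes were thus below the serum/LIF mean in both measurements. The matching share over all genes was not counted, so this count is not shown to be particular to the members. Pou5f1, at 3.57 on that scanner array, had a log2 value of 13.94 in the table column, within the 13.93 to 14.08 of the other KOSR/LIF columns.

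**Figure D5:**
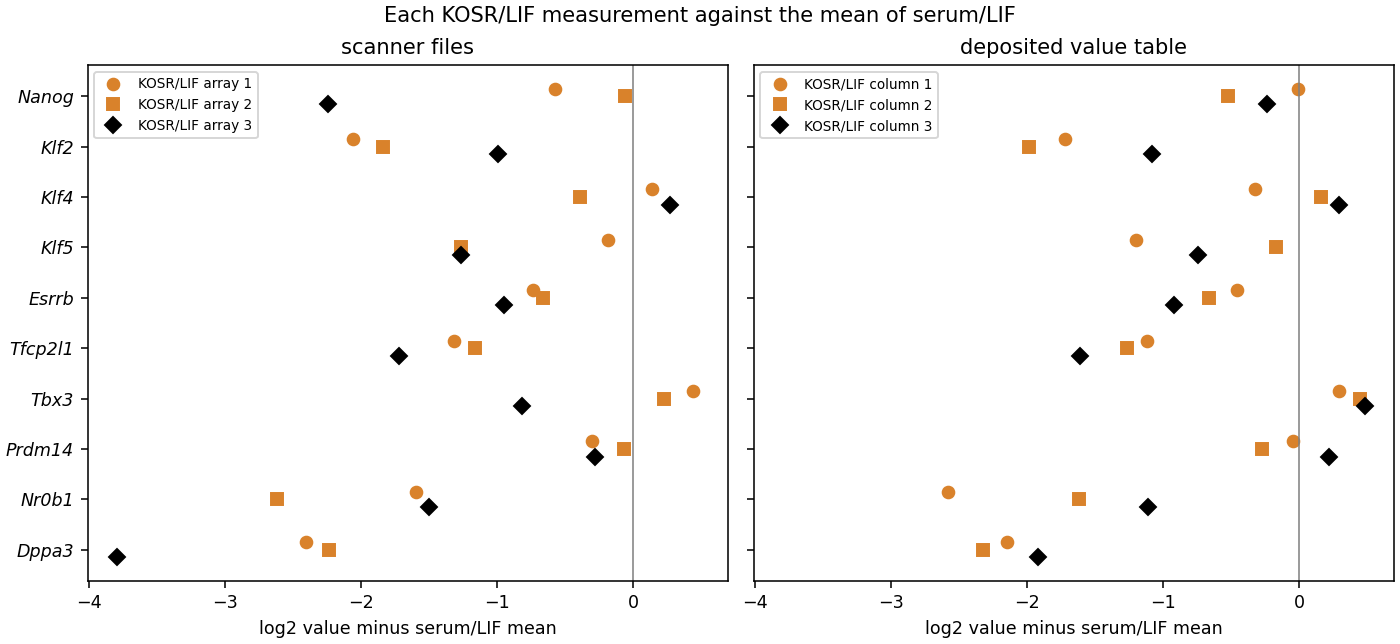
Log2 value of each gene on each KOSR/LIF measurement minus the mean of the 3 serum/LIF measurements, from scanner files (left) and from the deposited value table (right), where column 1 matches scanner array 2 and column 2 matches array 1. Replicate 3 (black) reads -2.24 for Nanog on the scanner and -0.23 in the table.

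The genes whose pattern over the 11 arrays was most like a member's were sought among 11043 genes well above background on every array. The closest of all was Ildr1, an epithelial tight junction gene, to Tfcp2l1 (RMS difference 0.14), followed by Mcf2 (0.29), a guanine nucleotide exchange factor. Prdm14 was near Epb41l4b (0.22), and Klf2 was nearest to Sash1 (0.23) and Zfp296 (0.34), a zinc finger gene of ES cells. Esrrb was nearest to Kank2 (0.16) and G6pdx (0.17), Nanog to Tubb2a-ps2 (0.27) and Smim7 (0.28), and Tbx3 to Slc7a1 (0.27) and Smtnl2 (0.28). Nr0b1 with Nccrp1 (0.45) and Crbn (0.47), and Dppa3 with Slc17a9 (0.52) and Gtsf1l (0.58), had no gene as close. For scale, a member's own RMS distance from its mean was 1.22 for Tfcp2l1, 0.44 for Esrrb and 1.39 for Dppa3.

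Other genes of the naive state went partly with the circuit. Of 17 such genes, 2 were higher and 1 lower in 2i/LIF against serum/LIF: Spic, an Ets factor (4.46 ± 0.34, adjusted p = 9.64e-06), Jam2, a junction protein (1.17), and Dppa4, a chromatin factor (-1.33). In KOSR/LIF against serum/LIF 0 rose and 2 fell, Tdh, the threonine dehydrogenase on which mouse ES cells depend (-2.42 ± 0.38, adjusted p = 0.00672), and Tcl1, an AKT co-activator (-1.74, 0.0165), with 1 higher and 6 lower at an unadjusted p under 0.05. Compared with KOSR/LIF, 7 were higher and 1 lower in 2i/LIF, led by Spic (4.81), Tdh (2.77), Tcl1 (2.44) and Jam2 (1.89), and the lower one was Dppa4 (-1.18). The medians of the list were 0.31, -0.21 and 0.57. The last comparison had 6 higher and 1 lower without KOSR/LIF replicate 3, Fbxo15 no longer passing (adjusted p = 0.0859).

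Among 7 core pluripotency factors, none rose and 2 fell in 2i/LIF against serum/LIF, Lin28a, an RNA-binding protein that blocks let-7 (-3.001 ± 0.55, adjusted p = 0.00264), and Utf1, a chromatin factor (-2.82, 0.00151). At an unadjusted p under 0.05 the list had 0 higher and 4 lower. In KOSR/LIF against serum/LIF Sox2 (-1.33 ± 0.24, adjusted p = 0.0124) and Foxd3, a forkhead factor (-1.76, 0.0291), fell, and none rose (0 higher and 3 lower unadjusted). In the deposited table Sox2 had a log2 value of 12.02 in the KOSR/LIF replicate 3 column, beside 11.05 and 11.16 in the other KOSR/LIF columns and 11.98 to 12.47 in serum/LIF. Pou5f1 passed in no comparison, with differences of -0.07, -1.07 and 1.00 in the order 2i/LIF against serum/LIF, KOSR/LIF against serum/LIF and 2i/LIF against KOSR/LIF. In the last, 2 were higher (Foxd3, 1.24, and Sox2, 0.79) and 2 lower (Utf1, -3.07, and Lin28a, -2.54). The medians were -0.54, -0.67 and 0.31. These calls rest partly on KOSR/LIF replicate 3. Without it Foxd3 passed in neither comparison with KOSR/LIF (adjusted p = 0.0623 and 0.0835), Sox2 was -1.12 against serum/LIF (0.0233) and did not pass in 2i/LIF against KOSR/LIF (0.0972), and the deposited table called neither gene in either. The 6 ES cell markers overlap this list and gave 0 higher and 2 lower, 0 higher and 1 lower, and 1 higher and 2 lower, with 0 higher and 3 lower unadjusted in each of the first 2 comparisons.

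Transcription factors of the formative and primed epiblast, the stages that follow the naive one, moved mostly the other way in 2i/LIF. Of 14, none rose and 8 fell against serum/LIF (0 higher and 10 lower unadjusted), with a list median of -2.08. The largest were Sox11 (-5.13 ± 0.47, adjusted p = 2.83e-05, with the probe well above background on 2 of 5 arrays in 2i/LIF), Id2, an inhibitor of bHLH factors (-4.69), Pou3f1, the POU factor Oct6 (-4.55), and Foxp1 (-4.29). Against KOSR/LIF 11 were lower and 1, Etv5, higher (0.77), with a median of -1.79, led by Sox11 (-3.95), Foxp1 (-3.70), Sox4 (-3.19) and Pou3f1 (-2.89). KOSR/LIF against serum/LIF had 2 lower, Id2 (-2.68) and Pou3f1 (-1.66), and 1 higher, Tead2 (0.89), with a median of -0.38. In 2i/LIF against KOSR/LIF without replicate 3 of KOSR/LIF, 7 were lower and 1 higher, where Id2, Otx2 and Sox3 were among those no longer passing (adjusted p = 0.0619, 0.0766 and 0.065), against 11 lower and 2 higher in the deposited table.

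The signals that feed the circuit were followed through their components and targets. Of 17 genes of FGF, MEK and ERK signalling, none rose and 8 fell in 2i/LIF against serum/LIF (0 higher and 9 lower unadjusted, median -0.80). Egr1, an immediate early gene of ERK, changed by -7.76 (adjusted p = 2.75e-06) with its probe well above background on 1 of 5 arrays in 2i/LIF, and by -6.77 when dim readings are set no lower than the faintest reading well above background on that array. Spry4, a feedback inhibitor, was well above background on 0 of 5 arrays in 2i/LIF and at least 14.1-fold lower there than in serum/LIF (measured means -6.81 in 2i/LIF and -1.27 in serum/LIF, adjusted p = 5.28e-06). The phosphatase genes Dusp4 and Dusp6 changed by -5.51 and -3.78. Against KOSR/LIF 7 were lower, with Egr1 at -5.80 (-4.81 with dim readings raised in the same way), Dusp4 at -3.85 and Dusp6 at -3.54. Spry4 was also lower (adjusted p = 7.29e-05 by limma), by 4.7-fold with dim readings in 2i/LIF raised. Its probe was well above background on 2 of 3 arrays in KOSR/LIF, so this fold is no lower bound. In the same comparison 1 was higher, Fgf4 (1.07), and the list median was -0.29. KOSR/LIF against serum/LIF had 1 lower, Spry1 (-1.74), and none higher, with 0 higher and 7 lower unadjusted and a median of -0.27, and without KOSR/LIF replicate 3 Spry1 did not pass by limma (adjusted p = 0.0669, 0 higher and 6 lower unadjusted).

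Of 12 tested genes of the GSK3 and TCF pathway, Sp5 (2.79 ± 0.75, adjusted p = 0.0235) and Axin2 (2.54, 0.0163), both targets of beta-catenin, were higher in 2i/LIF than in serum/LIF, and none was lower (3 higher and 0 lower unadjusted). Sp5 was lower in KOSR/LIF than in serum/LIF (-4.07, adjusted p = 0.0199) with none higher (0 higher and 1 lower unadjusted), and 6.86 higher in 2i/LIF than in KOSR/LIF, where Axin2 was also higher (3.43) and Lef1 lower (-2.91, not passing without KOSR/LIF replicate 3, adjusted p = 0.152). Sp5 was well above background on 2 of 3 arrays in KOSR/LIF, and Axin2 on 1 of 3 there and 2 of 3 in serum/LIF. With dim readings in KOSR/LIF raised, 2i/LIF minus KOSR/LIF was 6.52 for Sp5 and 2.86 for Axin2. The medians of the list were 0.34, 0.03 and 0.25. Of 11 genes of the LIF and STAT3 pathway, 1 was higher and 2 were lower in 2i/LIF against serum/LIF, the lower ones being Socs3, the feedback inhibitor of JAK (-1.86, adjusted p = 0.00848), and Pim3, a kinase gene (-1.48, 0.0312). None passed in KOSR/LIF against serum/LIF (0 higher and 2 lower unadjusted), and 2 were higher in 2i/LIF than in KOSR/LIF, among them the receptor chain gene Il6st (1.04, adjusted p = 0.0196), with none lower (2 higher and 1 lower unadjusted). The medians were -0.08, -0.38 and 0.19.

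Relatives of the members were taken as lists too. Of 13 tested Klf genes outside the circuit, Klf12 was lower (-1.94) and Klf1 higher (0.80) in 2i/LIF against serum/LIF, with a median of -0.32. In KOSR/LIF against serum/LIF Klf8 (-1.47), Klf6 (-1.39) and Klf15 (-1.30) were lower and Klf17 higher (1.34), with a median of -0.76. None of those 3 passed without KOSR/LIF replicate 3 (adjusted p = 0.105, 0.105 and 0.0965). In 2i/LIF against KOSR/LIF Klf8 (2.23) and Klf15 (1.48) were higher and Klf17 lower (-1.28), with a median of 0.14. Of 15 tested relatives of Esrrb, Tfcp2l1, Tbx3, Prdm14 and Nr0b1, Grhl2 (-2.19) and Grhl1 (-1.56) were lower and Tbx4 higher (1.62) in 2i/LIF against serum/LIF, Grhl1 alone passed in KOSR/LIF against serum/LIF (-1.39, with 1 higher and 3 lower unadjusted), and none passed in 2i/LIF against KOSR/LIF (0 higher and 0 lower unadjusted). The medians were 0.04, 0.04 and -0.05. Among 13 genes of Prdm14's partners and of DNA methylation, Dnmt3l, the cofactor of de novo methylation (-4.31 ± 0.63, adjusted p = 0.00068), Runx1t1, a co-repressor (-2.55), and Dnmt3b, a de novo methyltransferase (-1.87), were lower and Uhrf1, the maintenance factor (1.14), higher in 2i/LIF against serum/LIF. In 2i/LIF against KOSR/LIF Dnmt3l (-3.86) and Dnmt3a (-1.34) were lower and Uhrf1 higher (0.73, not passing without KOSR/LIF replicate 3, adjusted p = 0.074), and none passed in KOSR/LIF against serum/LIF (0 higher and 2 lower unadjusted). The medians were -0.09, -0.34 and 0.14.

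Markers of other cell types moved with the media as well. Of 8 primitive endoderm markers, 1 was higher in KOSR/LIF than in serum/LIF, Gata4 (2.18 ± 0.37, adjusted p = 0.00886), and none lower (5 higher and 0 lower unadjusted). Without KOSR/LIF replicate 3, and likewise in the deposited table, 4 were higher and 0 lower. Set against KOSR/LIF, 7 were lower and none higher in 2i/LIF (0 higher and 8 lower unadjusted), among them Col4a1 (-4.76, adjusted p = 0.000862), Dab2 (-4.90, 0.0021), Gata6 (-4.26, 0.012) and Sox7 (5.29-fold lower with dim readings raised in 2i/LIF, 0.00131). With dim readings raised in 2i/LIF, Col4a1 was -4.65, Gata6 -3.95 and Dab2 -3.39, Dab2 being well above background on 1 of 5 arrays in 2i/LIF and 2 of 3 in KOSR/LIF. Sox7 was well above background on 0 of 5 arrays in 2i/LIF and 2 of 3 in KOSR/LIF, so its fold is no lower bound. In 2i/LIF against serum/LIF 2 were lower, Col4a1 (-4.30) and Dab2 (-4.11, or -2.60 with dim readings raised), and none higher (0 higher and 4 lower unadjusted). The mean level of the 8 was -5.38 to -4.10 in 2i/LIF, -2.90 to 0.09 in KOSR/LIF and -3.65 to -2.37 in serum/LIF, and the log2 of their summed level -1.80 to -0.50, 0.77 to 3.68 and 1.098 to 1.72. All 8 were well above background on KOSR/LIF replicates 1 and 2, but Gata6, Sox17, Sox7, Pdgfra, Dab2 and Foxa2 were not on replicate 3. The faintest reading well above background was -2.62 on replicate 3, higher than on any other array. Being well above background is therefore not comparable between that array and the others. The mean level of the 8 on KOSR/LIF replicate 3 was -2.90. This was above every 2i/LIF array and serum/LIF replicates 1 and 2, and below serum/LIF replicate 3 (-2.37). Only 2 of the 8 readings on KOSR/LIF replicate 3 were well above background, so its place in this order rests mostly on dim readings. On KOSR/LIF replicate 3 Nanog, Klf5, Esrrb, Tfcp2l1, Tbx3 and Dppa3 were the lowest of all 11. The part of primitive endoderm cells in the members' differences was not tested.

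Of 8 trophoblast markers, 3 were lower and none higher in 2i/LIF against serum/LIF (Krt18, -5.13, Krt8, -3.10, and Hand1, at least 12.7-fold lower, adjusted p = 0.000216), 2 lower in KOSR/LIF against serum/LIF (Krt8, -3.85, and Krt18, -3.21) and 2 lower in 2i/LIF against KOSR/LIF (Hand1 10.5-fold lower with dim readings raised in 2i/LIF, adjusted p = 0.000448, and Krt18, -1.92). No list member rose in any of the 3, at an unadjusted p under 0.05 either. Hand1 was well above background on 2 of 3 arrays in KOSR/LIF, so its fold in 2i/LIF against KOSR/LIF is no lower bound. Krt8 was at -2.66 and not well above background on KOSR/LIF replicate 3, against 1.11 and 1.21 on the other KOSR/LIF arrays, and without that array Krt8 was -2.57 (adjusted p = 0.0431) and Krt18 -2.63 (0.0234) in KOSR/LIF against serum/LIF. The log2 of their summed level was 3.49 to 4.23 in 2i/LIF, 3.76 to 4.91 in KOSR/LIF and 6.27 to 7.31 in serum/LIF. Of 7 tested fibroblast markers, Col1a1 (-2.83), Col1a2 (-2.40) and Dcn (at least 4.03-fold lower, adjusted p = 0.00617) fell in 2i/LIF against serum/LIF, Col1a2 was higher in KOSR/LIF than in serum/LIF (2.00), and in 2i/LIF against KOSR/LIF Col1a2 (-4.40), Col1a1 (-3.29) and Dcn (at least 6.26-fold lower, adjusted p = 0.00213) were lower. The log2 of their summed level was 0.65 to 1.01 in 2i/LIF, 2.70 to 3.41 in KOSR/LIF and 1.73 to 3.55 in serum/LIF. The part of these cell types in the members' differences was not tested.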

How the data were processed

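RNA of 11 samples was hybridised to one-colour Agilent arrays, 1 array for each sample. The authors deposited scanner intensities made with Agilent Feature Extraction 11.0.1.1 on a design of build mm9, per the file headers. The processed intensity is corrected for background within each array. A deposited table of linear intensity values holds the same samples, with a normalization that no source used here states.

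Control spots and flagged spots were left out, spots of a probe were averaged, and log2 processed intensity minus each array's 75th percentile was taken. The RefSeq table of GRCm38.p6 gave a symbol to 27642 of the 29109 probes that carry a RefSeq accession. Probes well above background on at least 3 of 11 arrays were kept, and the brightest probe stands for a gene, leaving 16279 genes. The 3 media were fitted together with limma 3.58.1 in R 4.3.3, with empirical Bayes moderation and Benjamini-Hochberg adjustment over all genes at 0.05. The number of arrays limits the precision. Normexp used the median signal, since the files used here hold no mean signal. Alternatives were quantile normalization, the deposited table, other filters and probe rules, blocks for replicate, clone, scan day and slide, single scan days, and arrays left out. The fit was tested on simulated data. All 10 members are named, and for each other list the called genes with the largest changes, up to 4 in each comparison. For an "at least" fold, readings not well above background in the dimmer medium were set no lower than the faintest reading well above background on that array. Dim readings in the brighter medium were kept as measured, and a fold with such readings is given as no lower bound. Beyond the naming rule, Etv5, Fgf4, Gdf3, Slc2a3, Fbxo15, Otx2 and Sox3 were named after their values were seen. For likeness, the 2 genes with the smallest RMS difference are named. Members and lists were chosen with earlier results of these data known. 1 gene that the naming rules select is not reported here.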

Additional observations from a re-analysis of the deposited data

Results flagged for a closer look

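Within the 5 arrays of 2i/LIF, 2 members had 1 array far from the others by Dixon's criterion, whose critical value for 5 values is 0.71. Tfcp2l1 was lowest on 2i/LIF replicate 2, at a level of 4.54 where the other 4 arrays had 5.101 to 5.29, a gap of 0.745 of the whole range. Prdm14 was highest on 2i/LIF replicate 5, at 3.60 where the others had 2.66 to 2.92, a gap of 0.726 of the range. Of the 10 members tested in this way 2 were marked, and chance marks a small share of such groups.

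A second Nanog probe, which does not stand for the gene, read 7.86 on KOSR/LIF replicate 3 and at most 1.24 on any other array. In the deposited value table, 5 columns had a low rank correlation with the scanner file of their own name: 0.933 for 2i/LIF replicate 1, 0.936 for 2i/LIF replicate 4, 0.960 for KOSR/LIF replicate 1, 0.961 for KOSR/LIF replicate 2 and 0.842 for KOSR/LIF replicate 3. The other 6 columns had 0.988 to 0.999. The reason for these mismatches was not tested.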

How the results depend on the processing

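In 2i/LIF against KOSR/LIF, Tfcp2l1, Prdm14, Klf2 and Dppa3 kept their direction and passed in all 26 other settings with a test (highest adjusted p = 0.0042, 0.0171, 0.0336 and 0.0367). Genes called numbered 1755 in 2i/LIF against serum/LIF with normexp background correction, against 2750, 351 against 742 in KOSR/LIF against serum/LIF, and 1518 against 2410 in 2i/LIF against KOSR/LIF. With only probes well above background on all 11 arrays they were 1754 and 1513 in the comparisons of 2i/LIF with serum/LIF and with KOSR/LIF, from fewer genes tested, and without a filter 460 in KOSR/LIF against serum/LIF. On scan day 3 alone, 1033 genes and 0 members passed limma's test in 2i/LIF against serum/LIF, with 2 members higher and 1 lower at an unadjusted p under 0.05, from 3 arrays. Leaving out single arrays gave 1874 to 3226, 229 to 929 and 1795 to 2645 genes in 2i/LIF against serum/LIF, KOSR/LIF against serum/LIF and 2i/LIF against KOSR/LIF, and 2 to 4, 0 to 4 and 5 to 7 members.

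The replicate numbers did not pair the samples, since same-numbered arrays deviated together with correlations of -0.20 to 0.18. With the replicate block, 1957, 493 and 1443 genes and 2, 1 and 4 members passed in the same comparisons. Replicate numbers do not follow the clones, so this does not test pairing by clone. With the clone as a block, by titles or by source names, 3, 4 and 7 members passed.

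Directions that turned were mostly of members that had not passed. In 2i/LIF against serum/LIF, Esrrb was -0.0135 with the replicate block and -0.0739 to 0.26 without single arrays, negative without serum/LIF replicate 3. On scan day 1 Klf2 was -0.0385, Klf5 0.0661 and Dppa3 0.43. Without single arrays Dppa3 was -0.39 to 0.22, positive without 2i/LIF replicate 1 or 5 or serum/LIF replicate 3, and it was 0.39 without both of those 2i/LIF arrays, where Klf5 was 0.11. In KOSR/LIF against serum/LIF, Klf4 was -0.10 with normexp, and -0.19 to 0.34 without single arrays, negative without KOSR/LIF replicate 1 or 3 or serum/LIF replicate 1 or 2. Tbx3 was 0.0234 with quantile normalization, 0.41 in the deposited table and with scan day as a block, 0.58 with slide as a block, 0.71 on scan day 1, and -0.35 to 0.33 without single arrays, positive without KOSR/LIF replicate 3 or serum/LIF replicate 3. Without the 2 arrays of scan day 2, an alternative chosen after seeing the data, Klf4 was again -0.13 and Tbx3 0.33. With the mean of both probes Nanog was 1.19 in KOSR/LIF against serum/LIF and -0.23, having passed, in 2i/LIF against KOSR/LIF, where the second probe on KOSR/LIF replicate 3 enters. On scan day 2, with 1 array of 2i/LIF, 1 of KOSR/LIF and no test, Klf4 was -0.10 and Nr0b1 -0.35 in 2i/LIF against KOSR/LIF. In the deposited table the medians of the core factors and ES cell markers were -0.23 and -0.0246 in 2i/LIF against KOSR/LIF. With probes well above background on all arrays, that of primitive endoderm markers was 0.0279 in 2i/LIF against serum/LIF. Of the probes standing for these markers only that of Gata4 passes this filter, so the value does not describe the list. Apart from the Nanog probe and the smaller numbers of genes or arrays, the cause was not tested.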
